A study of Mus musculus with 17 samples.

Results

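A set of 5 genes of creatine metabolism was followed through cultured mouse astrocytes: *Ckb*, *Ckmt1*, *Gatm*, *Gamt* and *Slc6a8*. These 5 of the 56691 gene rows of the count table were taken by symbol. They were chosen by a measured value of these data: in astrocytes given SAG against DMSO, *Ckb* had an adjusted p below 0.01 and exceeded 1 in its log2 fold change, and the other 4 genes were added as its partners. Values of the 5 genes in that contrast are therefore given as a description, and no conclusion is drawn from their p-values there. Their values under FGF2 and FGF10 come from cultures that played no part in the choice.

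Creatine kinases move a phosphate group between ATP and creatine, so that phosphocreatine can buffer and carry energy from mitochondria to the places where ATP is spent. *Ckb* encodes the cytosolic brain form of the enzyme and *Ckmt1* the ubiquitous mitochondrial form. Creatine itself is made in 2 steps: GATM joins arginine and glycine to give guanidinoacetate, and GAMT methylates this to creatine. SLC6A8 is the plasma membrane transporter that takes creatine up from outside the cell.

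The astrocytes were from C57BL/6 mice at postnatal day 2, from the brain without olfactory bulbs, cerebellum and meninges. They were purified by immunopanning, in which a cell suspension passes over dishes with antibodies against CD45 and O4, which hold back immune cells and oligodendrocyte precursors, and is then caught on a dish with an antibody against HepaCAM. All cultures were kept in serum-free medium with HBEGF. In the SAG experiment, 3 cultures received the Smoothened agonist SAG at 500 ng/ml in DMSO and 3 received DMSO, from day 3 in vitro for 3 days. In the FGF experiment, FGF2 (4 libraries) or FGF10 (3 libraries) was given at 50 ng/ml in PBS and 4 libraries received PBS, from day 2 in vitro for 7 days. The study's methods count 3 replicates for FGF2, but 4 libraries carry that label and all of them are used here. The experiments differed in vehicle, start and duration, which cannot be told apart, so levels across them are set side by side and not tested. The labels do not say whether the libraries of a group came from separate animals, and p-values measure only the spread between these libraries.

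Each library was a 3ʹ-end library with between 17481727 and 68342287 counts in genes, with a median of 37173676. Levels are given in CPM, the usual scaling of a count to the total of its library, with totals adjusted by TMM over all 17 libraries. The 12 astrocyte markers examined, among them *Slc1a3* and *Sox9*, were detected in all libraries except for *S100b*, which had 0 counts in 2 SAG libraries. Their sums were 3600 to 6380 CPM, whereas the 8 microglia or macrophage markers summed to at most 4.36 CPM. The 12 oligodendrocyte lineage markers summed to 2214 to 4552 CPM, mostly from *Olig1* and *Olig2*, as described further on. In bulk cultures, fewer cells of a type and less RNA per cell cannot be told apart.

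*Ckb* lies at chr12:111669361-111672338 on the minus strand of GRCm38 and *Ckmt1* at chr2:121357714-121363737 on the plus strand. *Gatm* lies at chr2:122594467-122611303 and *Gamt* at chr10:80258151-80261012, both on the minus strand, and *Slc6a8* lies at chrX:73673150-73682502 on the plus strand. These are GENCODE M21 positions of protein-coding genes. The end of *Ckmt1* overlaps that of *Strc*, on the other strand, by 10 bases, and no other annotated gene overlaps any of the 5. *Ckb* has a processed pseudogene, *Ckb-ps1*, at chr17:53940979-53942105, and 999 of the 1124 bases aligned between both transcripts were identical (88.9%). *Ckb-ps1* had 1718 counts in SAG replicate 2, 330 in FGF2 replicate 4 and at most 1 in each of the other libraries. These counts came to 0.398% and 0.106% of the *Ckb* counts of the same libraries.

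The start regions of the most abundant member and of both synthesis enzymes are shown because *Ckb* and *Gatm* were both higher in the same libraries of the FGF experiment, as described further on, and *Gamt* is the partner of *Gatm*. Each sequence runs from 250 bases before the RefSeq start to 50 bases after it, read on the strand of the gene (GRCm38.p6). Capitals mark TATAAA and CCAAT or their reverse complements, TTTATA and ATTGG.
Ckb, chr12:111672289-111672588, minus strand: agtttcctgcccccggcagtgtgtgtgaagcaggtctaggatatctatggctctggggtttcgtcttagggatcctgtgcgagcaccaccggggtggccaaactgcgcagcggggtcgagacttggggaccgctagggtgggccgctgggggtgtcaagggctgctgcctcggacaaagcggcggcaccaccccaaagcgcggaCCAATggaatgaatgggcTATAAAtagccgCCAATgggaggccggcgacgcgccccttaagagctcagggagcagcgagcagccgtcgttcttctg
Gatm, chr2:122611228-122611527, minus strand: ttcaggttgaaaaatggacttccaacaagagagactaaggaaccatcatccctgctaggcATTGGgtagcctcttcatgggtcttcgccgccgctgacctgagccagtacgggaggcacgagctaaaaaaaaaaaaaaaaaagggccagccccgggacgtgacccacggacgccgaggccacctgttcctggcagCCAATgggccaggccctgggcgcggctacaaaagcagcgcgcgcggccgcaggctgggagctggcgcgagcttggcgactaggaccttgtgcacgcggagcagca
Gamt, chr10:80260963-80261262, minus strand: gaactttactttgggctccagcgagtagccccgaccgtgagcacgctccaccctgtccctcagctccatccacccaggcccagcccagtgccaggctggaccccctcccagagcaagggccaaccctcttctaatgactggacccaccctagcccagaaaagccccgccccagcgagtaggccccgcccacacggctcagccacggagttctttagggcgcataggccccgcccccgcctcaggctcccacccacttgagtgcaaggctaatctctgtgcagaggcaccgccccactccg
The *Ckb* window holds TATAAA starting 28 bases before the start and CCAAT starting 46 and 16 bases before it. The *Gatm* window holds CCAAT starting 55 bases before the start and, as ATTGG, 190 bases before it, and the *Gamt* window holds neither motif. Of 32851 windows of the same kind, 13.6% hold TATAAA and 37.4% hold CCAAT on either strand. GACCACCCA, a sequence bound by GLI factors, or its reverse complement TGGGTGGTC, stood in 0.253% of all windows and in none of the windows of *Ckb*, *Gatm*, *Gamt* and *Ckmt1*. These matches describe the letters of the windows only.

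*Ckb* was by far the most abundant of the 5 genes and ranked 15 among all genes by mean CPM. Its mean over the 17 libraries was 108 times that of *Gatm*, 91.0 times that of *Gamt* and 152 times that of *Slc6a8*. Counts of 3ʹ ends do not scale with transcript length, so these are ratios of levels of transcripts. *Ckb* had between 48682 and 431979 counts in a library. The libraries carry reads and not counted molecules, so counting error alone understates the error of a level.

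*Ckmt1* was nearly absent. It had 145 counts in PBS replicate 3 and 9 in FGF2 replicate 3, or 4.14 and 0.189 CPM, and 0 in the other 15 libraries. It passed the filter on low counts in none of the comparisons and was not tested. *Ckm*, the muscle form of creatine kinase, had 0 counts in all 17 libraries, and *Ckmt2*, the form of muscle mitochondria, had 5 in SAG replicate 1, 17 in FGF10 replicate 3 and 0 elsewhere. By counting error alone, a count of 0 allows up to 3 expected counts in a library. The spread between libraries was wider, as the 145 counts of *Ckmt1* in a single PBS library show, so a 0 can stand for more. At this depth, the *Ckb* form made up nearly all creatine kinase reads in these cultures.

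**Figure D1:**
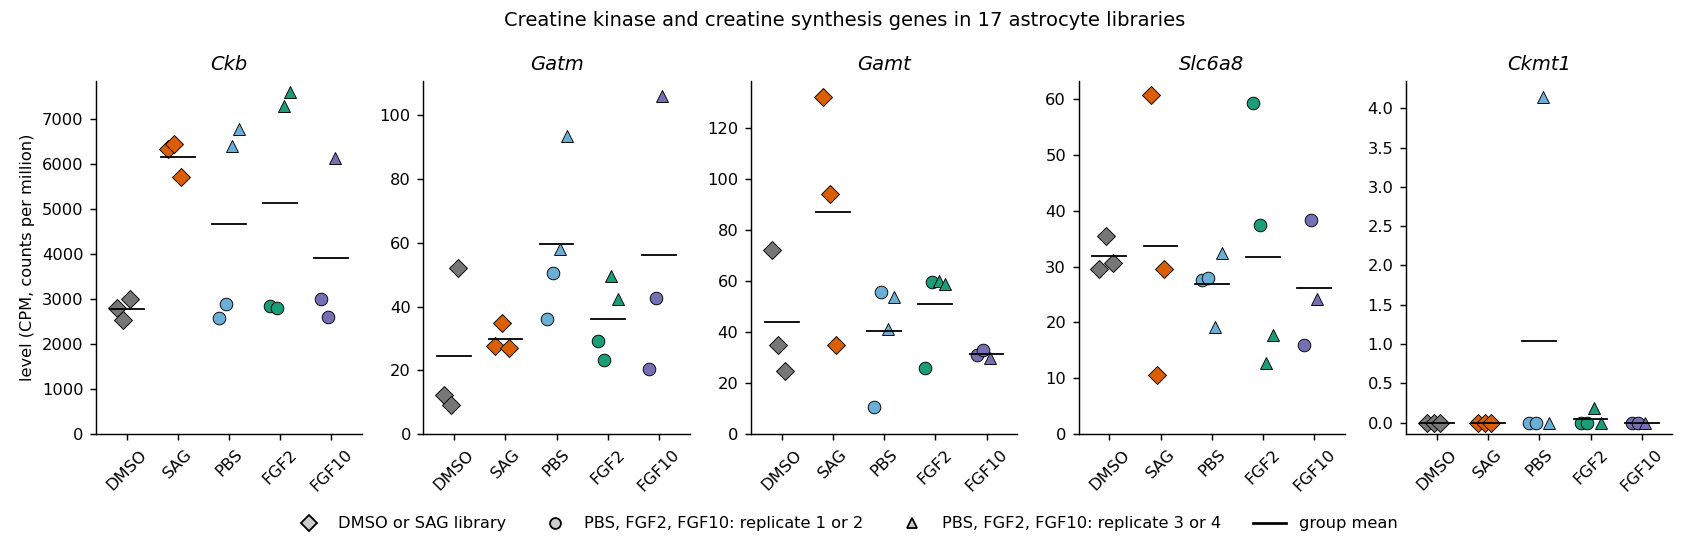
Level of each of the 5 genes in each of the 17 libraries, in CPM on linear axes of different range. Each symbol is a library, diamonds are the SAG experiment, circles and triangles are replicates 1 or 2 and 3 or 4 of the FGF experiment, and bars are group means. *Ckb* takes 2 levels, with all 3 SAG libraries and all 5 triangles at 5701 CPM or more and the other 9 libraries at 3001 CPM or less.

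*Ckb* was at 2798, 2541 and 2999 CPM in DMSO replicates 1, 2 and 3 and at 6331, 6439 and 5701 CPM in the SAG replicates. The groups did not overlap, and the lowest SAG library stood well above the highest DMSO library. The means were 2779 ± 230 CPM with DMSO and 6157 ± 398 CPM with SAG (SD, n = 3 each), a fitted log2 fold change of 1.17 (standard error 0.12). These are the values that chose the gene. By edgeR's quasi-likelihood test, 8 of 12538 genes (0.0638%) had an adjusted p under 0.05 in this contrast, and 4 (0.0319%) passed the stricter threshold that picked out *Ckb*. Groups without overlap were found in 14.2% of the genes tested. Adding the reads of *Ckb-ps1* to *Ckb*, a step chosen after seeing the data, left the log2 fold change at 1.17. The log2 fold change was 1.11 to 1.22 over all 13 alternatives. Since the gene was selected on this contrast, nothing is read from its p-values there.

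The other 3 measured genes had no such separation under SAG. *Gatm* was at 12.4, 9.23 and 52.2 CPM with DMSO and at 27.8, 35.0 and 26.9 CPM with SAG, so that the highest and the lowest libraries were both DMSO libraries. *Gamt* was at 72.3, 35.0 and 24.6 CPM with DMSO and at 132, 94.0 and 34.9 CPM with SAG. Its mean was higher with SAG, at a log2 fold change of 1.00 (standard error 0.52), and SAG replicate 3 lay within the DMSO range. It moved to 0.58 without SAG replicate 1 and to 1.57 without DMSO replicate 1. *Slc6a8* was at 29.5, 35.4 and 30.7 CPM with DMSO and at 60.7, 10.6 and 29.5 CPM with SAG. The DMSO libraries of *Slc6a8* lay close together, while the SAG libraries held both the highest and the lowest value. The log2 fold change was 0.31 (standard error 0.75) for *Gatm* and 0.10 (standard error 0.66) for *Slc6a8*, and both changed sign when single libraries were left out.

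In the FGF experiment, *Ckb* took the same 2 levels, and they went with the replicate number and not with the ligand. With PBS it was at 2583, 2896, 6388 and 6763 CPM in replicates 1 to 4. With FGF2 it was at 2847, 2791, 7277 and 7581 CPM, and with FGF10 at 3001, 2597 and 6128 CPM in replicates 1 to 3. In each of the 3 groups, replicates 1 and 2 were at 3001 CPM or less, and replicates 3 and 4 were at 6128 CPM or more. Over the 3 groups, replicates 1 and 2 were at 2786 ± 167 CPM (SD, n = 6) and replicates 3 and 4 at 6827 ± 603 CPM (SD, n = 5). The labels name no batch, so what the replicate numbers stand for is not known from them. This split was noticed in these data and is described without a test.

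With the treatment kept as a term, the log2 difference of *Ckb* between replicates 3 and 4 and replicates 1 and 2 was 1.30 (standard error 0.09). The log2 fold change between SAG and DMSO was 1.17 (standard error 0.12). The contrasts share no library, and the *Ckb* values of DMSO fell in the range of replicates 1 and 2, apart from DMSO replicate 2 at 2541 CPM. SAG replicates 1 and 2 fell within the range of replicates 3 and 4, and SAG replicate 3 fell below it. No *Ckb* value lay between 3001 and 5701 CPM in any of the 17 libraries, and 9 libraries stood below this gap and 8 above it.

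The 8 genes called under SAG were set beside their differences between the replicate numbers, an addition made after the values were seen. *Ckb*, *Olig1*, *Ccnd1*, *Id4* and *Tspan18* had differences of the same sign and of log2 size over 1 in both contrasts. For *Olig1*, a transcription factor of the oligodendrocyte lineage, the SAG value was 1.29 (standard error 0.14) and the replicate value 1.46 (standard error 0.11). For *Ccnd1*, which encodes cyclin D1, they were 2.33 and 2.80, for *Id4* -1.46 and -1.37, and for *Tspan18* -1.93 and -1.28. *Ptch1*, the receptor and a known target of the SHH pathway, had a SAG value of 2.50 (standard error 0.22) and a replicate value of 0.14 (standard error 0.26). *Grk3* and *Cdk6* had SAG values of 2.26 and 1.97 and replicate values of 0.59 and 0.42. The share of all genes with a replicate difference of log2 size over 1 was not taken. These values of the 8 genes are therefore a description only.

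**Figure D2:**
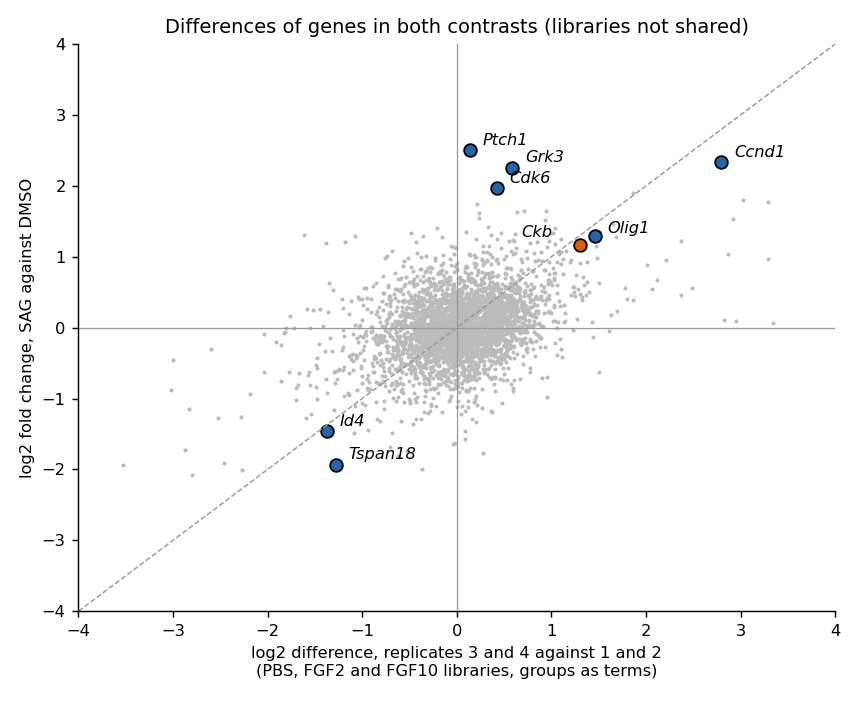
Log2 fold change of SAG against DMSO plotted on the log2 difference between replicates 3 and 4 and replicates 1 and 2 of the FGF experiment, for the 3332 genes with a mean of 50 CPM or more. The 8 genes called under SAG are named, with *Ckb* in orange near the dashed line of equal values at 1.30 and 1.17, and *Ptch1* near 0 on the horizontal axis.

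Across the 12370 genes fitted in both contrasts, the 2 differences had a Pearson r of 0.159 and a Spearman rho of 0.166. Across the 3332 of them with a mean of at least 50 CPM, they had a Pearson r of 0.378 and a Spearman rho of 0.311, and 59.75% of the genes had the same sign in both. Among the 82 genes at 1000 CPM or more, to which *Ckb* and *Olig1* belong, r was 0.739 and rho 0.711. The cut at 1000 CPM was not among the planned settings, and neither gene was left out. These are descriptions across genes, which are not independent replicates. Whether the difference of *Ckb* under SAG and its difference by replicate number have a common source was not tested.

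The sums of the marker lists were set beside the 2 *Ckb* levels, and not all of them differed between these levels. The sum of 12 oligodendrocyte lineage markers was 2268 to 2792 CPM with DMSO, 3991 to 4155 CPM with SAG, 2214 to 2522 CPM in replicates 1 and 2 and 3708 to 4552 CPM in replicates 3 and 4. *Olig1* and *Olig2* carried these sums. Without them, the other 10 markers summed to 531 to 667 CPM with DMSO and 467 to 578 CPM with SAG, and to 769 to 959 and 330 to 769 CPM in replicates 1 and 2 and 3 and 4. *Mog*, a marker of mature oligodendrocytes, was at 0 in 16 of 17 libraries. The astrocyte sum was 4997 to 5289 CPM with DMSO and 4073 to 4916 CPM with SAG, and 5530 to 6380 CPM in replicates 1 and 2 against 3600 to 4360 CPM in replicates 3 and 4. The neuronal sum was 735 to 922 CPM with DMSO and 514 to 709 CPM with SAG, and 685 to 893 and 654 to 726 CPM by replicate number. *Map2* carried it, at a mean of 659 CPM, with a log2 difference by replicate number of -0.01 (standard error 0.11). That difference was -2.18 for *Tubb3*, -2.34 for *Rbfox3*, -1.91 for *Dcx* and -3.83 for *Gad1*. Only *Stmn2* had a positive value, of 0.23 (standard error 1.90). The 6 endothelial or mural markers were low, with sums of 22.4 to 23.9 CPM with DMSO and 0 to 13.7 CPM with SAG. Their sums were 14.4 to 64.9 CPM in replicates 1 and 2 and 0 to 9.41 CPM in replicates 3 and 4. *Pdgfrb* had the highest mean of them, at 16.5 CPM, while *Cldn5* and *Kcnj8* were at 0 in all 17 libraries. The mean of *Pdgfrb* was 21.7 CPM with DMSO and 2.15 CPM with SAG. Those of *Flt1* (1.11 and 2.90 CPM) and *Rgs5* (0.11 and 1.67 CPM) went the other way. The 4 fibroblast markers summed to at most 17.7 CPM and overlapped in both contrasts. The part of these cell types in the *Ckb* levels was not tested.

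The genes with levels most like *Ckb* over the 17 libraries were *Olig1* (r = 0.97 on log2 CPM), *Acsbg1* (0.93), *Rplp1* (0.93), *Olig2* (0.93) and *Scd1* (0.92). *Acsbg1* encodes an acyl-CoA synthetase, *Rplp1* a ribosomal protein, and *Scd1* a fatty acid desaturase. *Olig1* was at 686 to 773 CPM with DMSO, 1699 to 1775 CPM with SAG, 546 to 652 CPM in replicates 1 and 2 and 1435 to 1858 CPM in replicates 3 and 4. *Acsbg1* was at 57.8 to 97.6, 187 to 256, 59.1 to 140.3 and 208 to 399 CPM in the same order. Since *Ckb* has 2 levels, the likeness was also taken within each. In the 9 libraries at the lower level r was 0.01 for *Olig1*, 0.62 for *Acsbg1*, 0.22 for *Rplp1*, 0.43 for *Olig2* and 0.11 for *Scd1*. In the 8 libraries at the upper level r was 0.25, 0.89, 0.43, 0.70 and 0.76 in the same order. All 5 genes had a lower r within the levels than over the 17 libraries. Each level mixes experiments and treatments and covers a narrow range of *Ckb*, so these values are a description only. The labels do not say which libraries were prepared together, depth differed between them, and genes were compared among 3332 candidates.

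**Figure D3:**
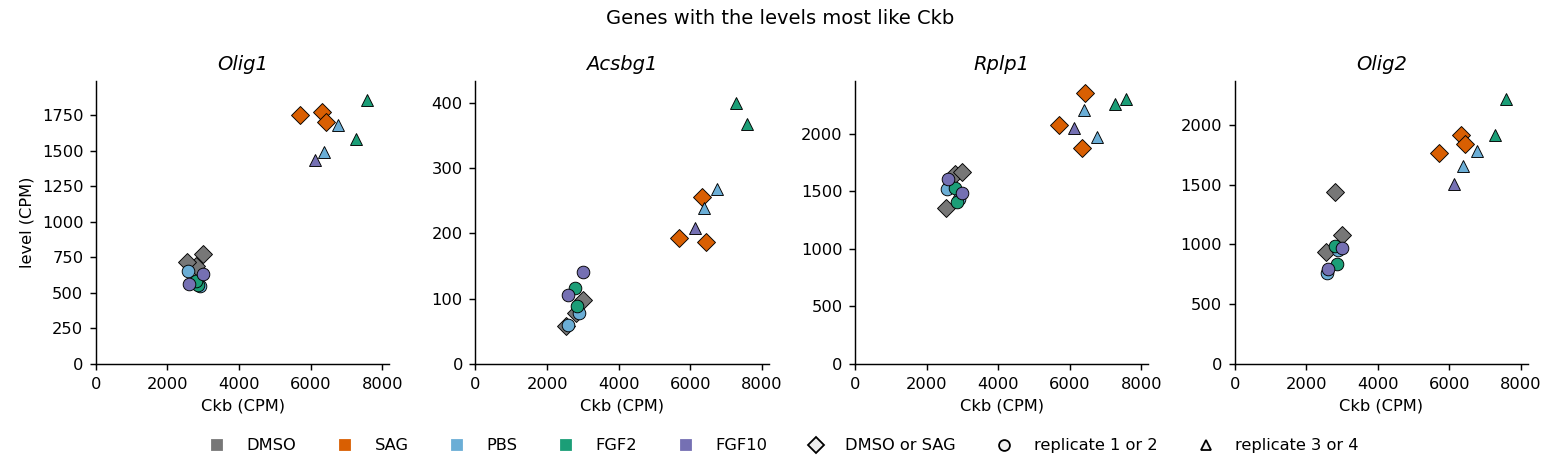
Levels of the 4 genes most like *Ckb* plotted on the level of *Ckb*, in CPM on linear axes, with 1 symbol for each of the 17 libraries, coloured by group and shaped as diamonds (SAG experiment), circles (replicates 1 or 2) or triangles (replicates 3 or 4). The libraries form 2 clouds with *Ckb* at 3001 CPM or less and at 5701 CPM or more. Within the clouds, r with *Ckb* was 0.62 and 0.89 for *Acsbg1* and 0.01 and 0.25 for *Olig1*.

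The comparison of FGF2 with PBS asked whether this ligand changed the creatine genes. None of the 4 measured members was called at an adjusted p under 0.05, against 0 of all 12744 genes tested (0%) by edgeR's quasi-likelihood test, 223 genes at an unadjusted p under 0.05, and 117 genes but no member by DESeq2. Without overlap between groups were 0 of the 4 members and 2.45% of all genes. *Ckb* had a log2 fold change of 0.14 (95% interval -0.71 to 1.00, adjusted p = 1.00; exact two-sided permutation of CPM, p = 0.571). Each group held libraries at both levels of *Ckb*. A fit with the replicate set (1 and 2, or 3 and 4) as a term gave 0.12 (standard error 0.10). Within replicates 3 and 4 both FGF2 libraries, at 7277 and 7581 CPM, stood above both PBS libraries, at 6388 and 6763 CPM, whereas within replicates 1 and 2 the values overlapped.

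*Gatm* had the largest difference of the members under FGF2. It was at 36.2, 50.6, 58.2 and 93.5 CPM in PBS replicates 1 to 4 and at 29.3, 23.3, 49.6 and 42.5 CPM in the FGF2 replicates. Each FGF2 library was below the PBS library of the same number, but the groups overlapped, and no label makes libraries of the same number pairs. The log2 fold change was -0.71 (95% interval -1.54 to 0.12), with an adjusted p of 1.00 in edgeR's quasi-likelihood test and a p of 0.114 in the exact permutation test, of which 0.0286 was the smallest possible. It stayed negative in all 17 alternatives, from -0.91 to -0.40. Neither test took up the difference of *Gatm* by replicate number. With the replicate set as a term the log2 fold change was -0.71 (standard error 0.35). With the replicate number as a term it was -0.69 (standard error 0.35), and *Gatm* was called in neither fit.

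*Gamt* was at 10.8, 55.6, 41.3 and 53.9 CPM with PBS and at 25.9, 59.7, 60.2 and 58.8 CPM with FGF2. In both groups replicate 1 was the lowest, and each FGF2 library was above the PBS library of the same number, while the groups overlapped. The log2 fold change was 0.35 (95% interval -0.69 to 1.38; exact permutation p = 0.457). A fit with the replicate number as a term (replicate block) gave 0.51 (standard error 0.36, adjusted p = 1 in edgeR's quasi-likelihood test). Single libraries moved the value of the fit without this term to between 0.033, without PBS replicate 1, and 0.57, without FGF2 replicate 1. *Slc6a8* was at 27.6, 28.0, 19.2 and 32.5 CPM with PBS and at 59.2, 37.4, 12.7 and 17.7 CPM with FGF2. Its FGF2 libraries lay on both sides of the PBS range, above it in replicates 1 and 2 and below it in replicates 3 and 4, with a log2 fold change of 0.25 (95% interval -0.88 to 1.39; exact permutation p = 0.743). An interaction of ligand and replicate set gave -1.57 for *Slc6a8* (unadjusted p = 0.117, adjusted p = 0.997 in edgeR's quasi-likelihood test), and adjusted p-values of 1 for *Ckb*, *Gatm* and *Gamt*.

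**Figure D4:**
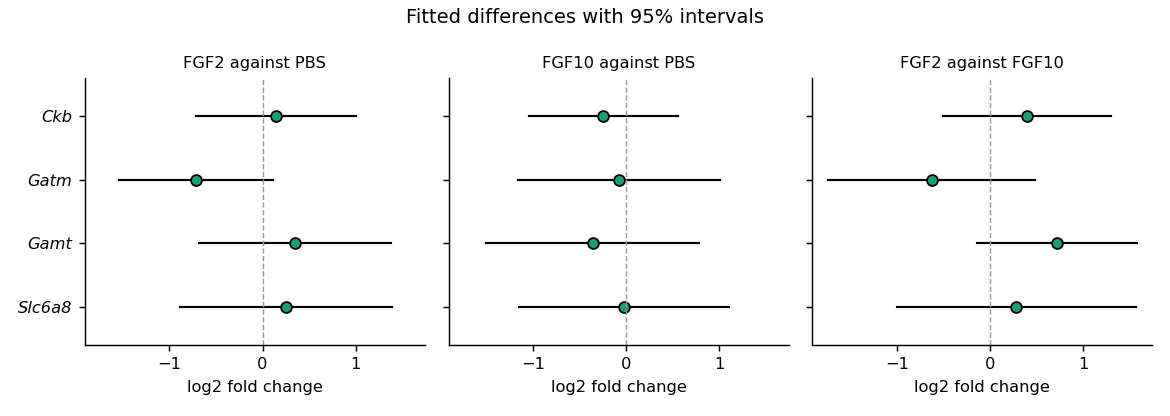
Fitted log2 fold change (points) and 95% interval (lines) of *Ckb*, *Gatm*, *Gamt* and *Slc6a8* in the 3 FGF comparisons, with the dashed line at 0. All 12 intervals include 0.

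FGF10 was compared with the same 4 PBS libraries, so the values are not independent of those under FGF2. None of the 4 members was called, against 0 of 13309 genes (0%) by edgeR's quasi-likelihood test, 305 at an unadjusted p under 0.05, and 102 genes but no member by DESeq2. The groups overlapped for all 4 members and were apart in 4.79% of all genes. *Ckb* had a log2 fold change of -0.25 (95% interval -1.05 to 0.55; exact permutation p = 0.657), and of -0.00 (standard error 0.11) with the replicate set as a term. *Gatm* was at 20.3, 42.7 and 105.8 CPM with FGF10, a log2 fold change of -0.08 (95% interval -1.16 to 1.01; exact permutation p = 0.914). FGF10 replicate 3 held the highest *Gatm* level of all 17 libraries. *Gamt* was at 31.1, 33.0 and 29.9 CPM, the narrowest spread of the 5 groups for this gene, with a log2 fold change of -0.36 (95% interval -1.51 to 0.78; exact permutation p = 0.486). *Slc6a8* was at 16.0, 38.4 and 24.2 CPM, a log2 fold change of -0.03 (95% interval -1.16 to 1.11; exact permutation p = 0.914).

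Between the ligands, FGF2 against FGF10, no member was called, against 0 of 13493 genes (0%) by edgeR's quasi-likelihood test, 324 at an unadjusted p under 0.05, and 91 genes but no member by DESeq2. Groups without overlap were found for 0 of the 4 members and 4.90% of all genes. *Gamt* had a log2 fold change of 0.71 (95% interval -0.15 to 1.58; exact permutation p = 0.143), with FGF2 replicates 2, 3 and 4 above and FGF2 replicate 1 below all 3 FGF10 libraries. The value was 0.40 (95% interval -0.50 to 1.30) for *Ckb*, -0.63 (95% interval -1.75 to 0.48) for *Gatm* and 0.28 (standard error 0.59) for *Slc6a8*. The *Gatm* value changed sign without FGF10 replicate 3, to 0.21. With the replicate set as a term, the *Ckb* value was 0.12 (standard error 0.11).

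By group mean, *Ckb* was highest with SAG, followed by FGF2, PBS, FGF10 and DMSO. The PBS, FGF2 and FGF10 means each average over the 2 levels of *Ckb*. Replicates 3 and 4 made up 2 libraries in PBS and in FGF2 but 1 in FGF10. With the replicate set as a term, the log2 fold change against PBS was 0.12 (standard error 0.10) for FGF2 and -0.005 (standard error 0.11) for FGF10. *Gatm* was highest with PBS (59.6 ± 24.3 CPM, SD, n = 4) and lowest with DMSO (24.6 ± 23.9 CPM, SD, n = 3). *Gamt* was highest with SAG (87.0 ± 49.1 CPM, SD, n = 3) and lowest with FGF10 (31.3 ± 1.56 CPM, SD, n = 3). *Slc6a8* ranged only from 26.2 ± 11.3 CPM (SD, n = 3) with FGF10 to 33.6 ± 25.3 CPM (SD, n = 3) with SAG. For each of the 4 genes, every pair of neighbours in the order of means had overlapping libraries.

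The synthesis genes and the transporter followed *Ckb* unevenly by replicate number. *Gatm* was 1.07 higher on the log2 scale in replicates 3 and 4 than in replicates 1 and 2 (standard error 0.30), and in each of the 3 FGF experiment groups its higher-numbered libraries lay above its lower-numbered libraries. Over the 3 groups together the sets overlapped, with replicates 1 and 2 at up to 50.6 CPM and replicates 3 and 4 from 42.5 CPM. The share of all genes separated by replicate number in each group was not taken, so this is a description only. *Gamt* had a difference of 0.37 and *Slc6a8* one of -0.67. Over the 17 libraries, *Ckb* had a correlation on log2 CPM of 0.52 with *Gatm*, 0.48 with *Gamt* and -0.43 with *Slc6a8*, and the other 3 pairs had r between -0.20 and -0.10. Within the 2 levels of *Ckb*, r with *Gatm* was 0.30 in the 9 lower and 0.16 in the 8 upper libraries. *Slc6a8* kept a negative r in both, at -0.33 and -0.40.

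The genes most like *Gatm* were *Aldoa*, which encodes an aldolase of glycolysis (r = 0.86), *Tmsb4x* (0.79), which encodes an actin-binding thymosin, and *Cdk2ap1* (0.76). Those most like *Gamt* were *Nabp2* (0.79), *Nsd1* (0.77), which encodes a histone methyltransferase, and *Sfxn1* (0.77), which encodes a mitochondrial serine transporter. *Limch1* (0.80), *Ndufaf2* (0.72), an assembly factor of respiratory complex I, and *Gpm6b* (0.72) were most like *Slc6a8*. None of the 5 genes most like *Ckb* was among them.

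The surroundings of the 5 genes in phosphocreatine metabolism were examined with 38 further genes: other creatine kinases and carriers, adenylate and nucleoside diphosphate kinases, mitochondrial pores and carriers, genes that supply arginine, glycine and methyl groups, and the sodium-potassium ATPase. In each of the 4 comparisons 0 of the genes tested (29, 30, 30 and 31) were called in either direction. Their median log2 fold change was -0.03 under SAG, where that of all genes was -0.02, 0.15 under FGF2, 0.08 under FGF10 and -0.01 for FGF2 against FGF10, where the medians of all genes were 0.00, -0.00 and 0.01. Of the 6 mitochondrial partners of creatine kinase, 5 had higher values with SAG, with a median of 0.41, and 6 of 6 with FGF2, with a median of 0.18. None of these passed the test.

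**Figure D5:**
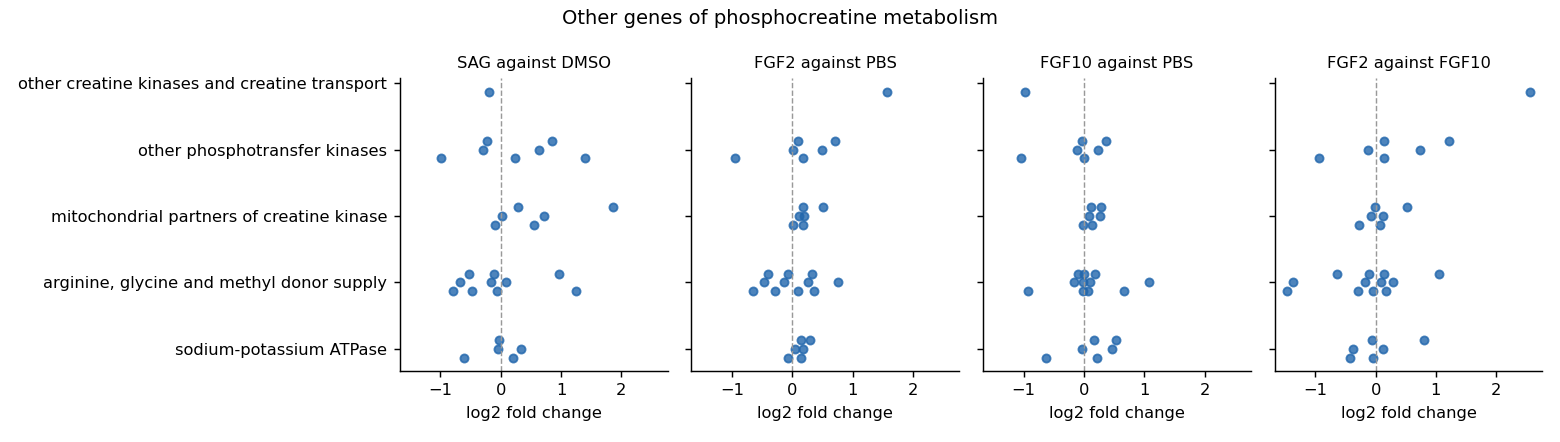
Log2 fold change of each tested gene of the 5 lists of phosphocreatine metabolism in the 4 comparisons, 1 point per gene, with the dashed line at 0. None of the 29 to 31 genes tested in a comparison was called, and *Slc6a6*, the only tested gene of the top row, has the largest value at 2.56 for FGF2 against FGF10.

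The largest differences among these genes under SAG were those of *Vdac3*, an outer mitochondrial membrane channel (1.85, standard error 0.94), *Ak4*, a mitochondrial adenylate kinase (1.40, standard error 1.00), and *Gcsh*, a subunit of the glycine cleavage system (1.24, standard error 0.64). Under FGF2 they were those of *Slc6a6*, the taurine transporter (1.57, standard error 1.09), *Ak1*, the cytosolic adenylate kinase (0.70, standard error 0.39), and *Slc7a2*, a carrier of cationic amino acids (-0.65, standard error 0.65). Under FGF10 *Ak4*, *Slc6a6* and *Slc7a1* had values of -1.05, -0.98 and -0.93. *Slc6a6* was at 17.3 ± 8.40 CPM (SD, n = 4) with FGF2, 5.87 ± 4.44 CPM (SD, n = 4) with PBS and 2.94 ± 3.55 CPM (SD, n = 3) with FGF10. FGF2 and FGF10 libraries of *Slc6a6* did not overlap, with a log2 difference of 2.56 (standard error 1.54, adjusted p = 1.00 in edgeR's quasi-likelihood test).

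As a check of the treatments, *Ptch1* had a mean of 84.0 ± 17.7 CPM (SD, n = 3) under DMSO and of 468 ± 12.7 CPM (SD, n = 3) under SAG. *Dusp6*, *Spry4*, *Etv4* and *Etv5*, feedback and target genes of FGF signaling, all had positive values under FGF2, from 0.40 to 1.78, of which none passed edgeR's test, and *Etv4* alone of them was positive under FGF10 (1.07). These readouts also differed by replicate number with the treatment kept as a term: the log2 difference between replicates 3 and 4 and replicates 1 and 2 was 2.01 for *Dusp6* (standard error 0.38), 2.59 for *Spry4* (standard error 1.08), 1.90 for *Etv4* (standard error 0.37) and 1.51 for *Etv5* (standard error 0.31). For *Spry4* this was uneven between the groups. With FGF10 it was at 3.84 to 5.97 CPM in replicates 1 and 2 and at 6.03 CPM in replicate 3. With FGF2 it was at 0 to 10.5 CPM in replicates 1 and 2 and at 53.8 to 77.2 CPM in replicates 3 and 4. Under PBS alone, *Dusp6* was at 20.7 to 26.8 CPM in replicates 1 and 2 and at 66.1 to 96.9 CPM in replicates 3 and 4. All 4 also had positive values under SAG, with a median of 1.00. Within replicates 3 and 4, both FGF2 libraries stood above both PBS libraries for *Spry4* (53.8 to 77.2 against 8.58 to 26.9 CPM). The same held for *Etv4* (56.0 to 96.6 against 31.6 to 40.6 CPM) and *Etv5* (93.6 to 149.5 against 70.7 to 82.2 CPM). *Dusp6* overlapped there, and within replicates 1 and 2 none of these readouts was higher in both FGF2 libraries. Over both replicate sets, the readouts did not show, by edgeR, a response to either ligand against which the creatine genes could be read.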

How the data were processed

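Bulk RNA-seq was available for 17 libraries of cultured mouse astrocytes. The authors made 3ʹ-end libraries, removed BC1 transcripts and deposited unnormalized whole-number read counts per gene. The submitters' processing notes name STAR, DESeq2 and GRCm38, while the gene annotation, the strand setting and any removal of PCR copies are not given in the sources used here. The 114 spike-in rows, with at most 86 counts in a library, were left out. Tests were run with edgeR 4.0.16 under R 4.3.3 (filterByExpr with minimum counts of 10 and 15 in total, TMM, quasi-likelihood test, Benjamini-Hochberg adjustment over all genes tested, calls at 0.05), with only the groups compared in a fit. DESeq2 1.42.0 was an alternative. Standard errors came from the F statistic, and an exact two-sided permutation test was run on the CPM of single genes. Correlations used log2 CPM with a prior count of 2. No pair of libraries of a group agreed within sampling noise (chi-square per degree of freedom of at least 151.6 over 21 pairs).

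Genes and lists were chosen with earlier results of these data known. All 5 creatine genes were named, together with the 3 further pathway genes of largest difference and a mean of at least 10 CPM in each comparison, and the 5 (*Ckb*) or 3 genes of at least 50 CPM most correlated with each of them. No label pairs the libraries, so the main fits took no pairs and the replicate block was an alternative. Deviations of libraries with the same number correlated at 0.127 to 0.159 in FGF2 and PBS and at -0.004 to 0.017 in SAG and DMSO. They correlated at 0.067 to 0.158 in FGF10 and PBS and at 0.099 to 0.181 in FGF2 and FGF10. In FGF2 and PBS, different numbers of the same set correlated as strongly, at 0.104 to 0.175, so a pair cannot be told from a set. Start sequences came from RefSeq (GRCm38.p6), which held windows for 4 of the 5 genes and none for *Slc6a8*.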

Additional observations from a re-analysis of the deposited data

Results flagged for a closer look

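In groups of 4 libraries, a single library stood far from the other 3 in 3 cases. For *Ckmt1* this follows from the single library with reads in a group, so no chance rate applies. *Ckmt1* was at 4.14 CPM in PBS replicate 3 and at 0 in the other PBS libraries, and at 0.189 CPM in FGF2 replicate 3 and at 0 in the other FGF2 libraries. *Gamt* was at 25.9 CPM in FGF2 replicate 1, where the other 3 FGF2 libraries lay between 58.8 and 60.2 CPM. Chance flags about 1 in 20 groups in this way. The cause was not tested.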

How the results depend on the processing

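Of 233 alternative values of the log2 fold changes of the measured creatine genes, 207 kept direction and side of the threshold and 22 changed sign. None of the sign changes was of *Ckb* under SAG, while 4 were of *Ckb* under FGF2 and 2 of *Ckb* under FGF10. *Ckb*, selected on its SAG value, was no longer past the threshold in a fit of all 17 libraries (0 creatine genes past it) or without DMSO replicate 1, SAG replicate 2 or SAG replicate 3 (0 to 1). No setting tried called a creatine gene in the FGF comparisons. Under SAG, where 8 genes were called, 76 were called without a filter, 42 with a mean of 10 counts, 4 with all 17 libraries, 394 with DESeq2's Wald test and 1 to 7 with single libraries left out. DESeq2 called 117 genes for FGF2 and 102 for FGF10 against PBS and 91 between them, where edgeR called 2 without a filter. Beyond the number of genes or libraries entering the fit, the cause was not tested.

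With the replicate block, 12 genes were called under SAG, 0 for FGF2, 0 for FGF10 and 0 between them, and no call of a creatine gene changed. SAG and DMSO libraries share only a number and did not all correlate best with their own number. Signs changed in the replicate block for *Slc6a8* under SAG (-0.21) and for *Ckb* (0.012), *Gamt* (0.087) and *Slc6a8* (0.018) under FGF10, in replicates 1 and 2 alone for *Ckb* under FGF10 (0.030), and in replicates 3 and 4 alone for *Slc6a8* under FGF2 (-0.76). With single libraries left out, values under SAG ran from -0.084 to 1.49 for *Gatm* and from -0.64 to 0.53 for *Slc6a8*. Under FGF2 they ran from -0.11 to 0.39 for *Ckb* and from -0.24 to 0.51 for *Slc6a8*, and under FGF10 from -0.92 to 0.30 for *Gatm* and from -0.43 to 0.21 for *Slc6a8*. Between the ligands they ran from -1.03 to 0.21 for *Gatm* and from -0.21 to 0.66 for *Slc6a8*. Group levels without TMM scaling moved by less than 1 SD. All correlations named for genes most like a creatine gene moved by less than 0.1 after group means were subtracted. This step leaves the difference by replicate number within the PBS, FGF2 and FGF10 groups in place. It therefore cannot show whether the correlations hold without that difference. Within the 2 levels of *Ckb*, r of *Olig1* with *Ckb* was 0.01 and 0.25.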
